A study of Saccharomyces cerevisiae with 4 samples.

Results

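The genes described here code for the enzymes that take pyruvate to ethanol and acetate in budding yeast, together with the enzyme that opens the glycerol branch. They are the pyruvate decarboxylase genes PDC1, PDC5 and PDC6, the alcohol dehydrogenase genes ADH1, ADH2, ADH3, ADH4 and ADH5, the cytosolic aldehyde dehydrogenase gene ALD6 and the glycerol-3-phosphate dehydrogenase gene GPD1. These 10 genes, of 5539 genes with a probe, were found by gene symbol in the platform's probe annotation, and each had 2 probes. The study set RNA that came down with zzMex67, a tagged form of the export receptor Mex67, against total RNA of Saccharomyces cerevisiae. Each of the 4 two-colour arrays carried both RNA sources, so that a spot yields their ratio, and the 4 arrays form 1 group. On arrays 1 and 2 channel 2 held the zzMex67 RNA, and on arrays 3 and 4 it was channel 1. The labels give no strain beyond the tag, no growth condition and no array of an untagged strain, and no statement that separate cultures were used. The sample titles carry 2 codes of unstated meaning, with arrays 1 and 3 sharing 1 code and arrays 2 and 4 the other. The 4 arrays may thus not be independent. The spread behind each p-value is that between these 4 hybridisations, and it may be technical.

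Mex67 works as a dimer with Mtr2 and carries mature messenger RNA from the nucleus through the pores. In yeast growing on sugar, pyruvate is decarboxylated to acetaldehyde by pyruvate decarboxylase, and alcohol dehydrogenase reduces acetaldehyde to ethanol, which regenerates the NAD+ that glycolysis needs. Transcripts of Pdc1 and Adh1, the main isozymes of these steps, are among the abundant messengers of fermenting cells, whereas ADH2 is repressed by glucose and serves the oxidation of ethanol.

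Values are log2 ratios, converted from the deposited log10 ratios and given as the distance from each array's median over named genes measured on at least 3 arrays. A value of 0 is thus the middle of the measured genes on that array, and the removed medians were log2 -1.71, 1.74, -3.71 and -1.61 on arrays 1 to 4. Above the median likely means enriched with zzMex67 relative to total RNA, because the labels describe the values as a level of Mex67 binding. The labels do not state the direction, and every sign below would turn if all 4 columns run the other way. Direction could also differ between arrays 1 and 2 and arrays 3 and 4, where the channels were swapped. In that case no call below would remain, since no feature passed with arrays 3 and 4 turned. Ratios were present for 845, 2467, 973 and 1112 of 12800 probes on arrays 1 to 4. Array 1 stood apart: over shared features (named genes, or single unnamed probes) it correlated with arrays 2, 3 and 4 at r = 0.127, 0.239 and 0.163, whereas the other pairs lay between 0.756 and 0.889. MEX67 itself had no ratio on either of its 2 probes. With at most 4 values per gene, precision is limited throughout by the number of arrays.

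Of the 10 genes, 7 had a ratio on at least 1 array and 4 on at least 3 arrays, which was the condition for a test. Among the 5539 genes, the shares were 31.6% for at least 1 array and 8.99% for at least 3. PDC1 and ADH1 were measured on all 4 arrays, PDC6 and ADH2 on arrays 2, 3 and 4. PDC5 and ADH3 had a ratio on array 1 only and ADH4 on array 2 only. ADH5, which codes for a minor cytosolic alcohol dehydrogenase, ALD6, whose product oxidises acetaldehyde to acetate, and GPD1, whose product reduces dihydroxyacetone phosphate towards glycerol, had no ratio on any array. The rule by which spots lack a ratio is not given in the sources used here, so a missing ratio says nothing about the level of a transcript.

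Among the 4 genes tested, ADH1 and PDC6 lay above the median, ADH2 lay below it, and PDC1 did not pass. The test was limma's moderated test of the mean against 0, with Benjamini-Hochberg adjustment over all 596 features on at least 3 arrays and a threshold of 0.05. By this test 22.5% of all features lay above the median and 25.2% below it, 47.7% in all, so calls are common in this fit and 3 calls among 4 genes have to be read against that share. The 4 means had a median of 0.61 and ran from -1.90 to 2.56, while the median over all features was -0.0047 and their means ran from -4.47 to 4.23. ADH1, PDC6 and ADH2 lay on 1 side of the median on every array that measured them, as did 68.3% of all features. With arrays 3 and 4 turned against arrays 1 and 2, 0 of the 4 genes and 0 of all features passed in limma (1 feature at an unadjusted p under 0.05), so each call rests on reading the 4 columns in the same direction.

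**Figure D1:**
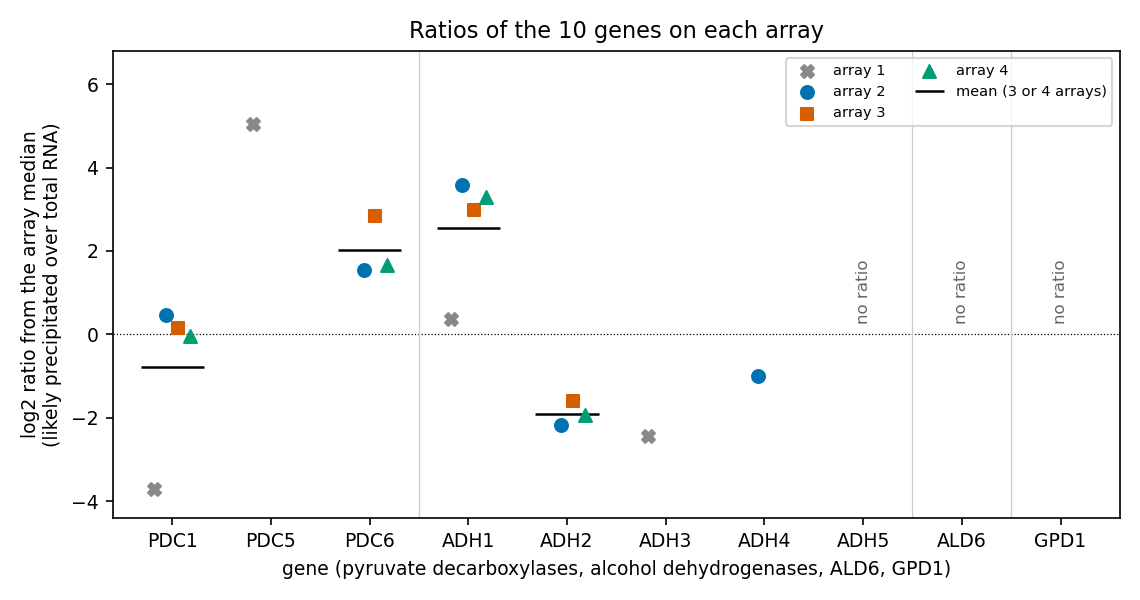
Log2 ratio from the array median (y axis) of each of the 10 genes (x axis) on arrays 1 to 4; each symbol is 1 array, and a black line is the mean of a gene measured on 3 or 4 arrays. ADH1 lies above 0 on 4 of 4 arrays and PDC6 on 3 of 3, ADH2 lies below 0 on 3 of 3, and PDC1 lies near 0 on arrays 2 to 4 and at -3.72 on array 1.

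PDC1 codes for the main pyruvate decarboxylase of fermenting yeast. Its log2 ratios from the median were -3.72, 0.47, 0.16 and -0.05 on arrays 1 to 4. On arrays 2 to 4 it lay within 0.47 of the median, and array 1 alone was far below. The mean was -0.79 ± 1.97 (SD, n = 4) and did not pass (limma, adjusted p = 0.417). Without array 1 the mean was 0.19 and did not pass either (limma, adjusted p = 0.472), so the sign of the mean rested on that array. By rank, PDC1 stood above 73.5%, 56.0% and 54.4% of the other genes with a ratio on arrays 2, 3 and 4, and above 3.43% of them on array 1.

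The probes of PDC1 agreed on this. On array 1 they lay at -3.58 and -3.86, and on arrays 2, 3 and 4 the gaps between them were 0.27, 0.46 and 0.23. For comparison, the median gap between both probes of a gene was 0.50, 0.53, 0.36 and 0.34 on arrays 1 to 4, over 283, 724, 289 and 319 genes. Low values were shared on array 1 by other probes of the block of 400 consecutive probe numbers that holds PDC1. There 171 other probes had a ratio on array 1 and their median lay at -2.01. On arrays 2 to 4 those other probes had medians of -0.44, -0.79 and -0.54, over 29, 11 and 12 probes.

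PDC6 codes for a minor pyruvate decarboxylase. Its log2 ratios were 1.54, 2.83 and 1.66 on arrays 2, 3 and 4, all above the median. The mean was 2.01 ± 0.71 (SD, n = 3), which is 4.03-fold above the median (limma, adjusted p = 0.0128). Centred on the median of its block, the mean was 0.38 and the call ended (limma, adjusted p = 0.543). On arrays 2, 3 and 4 it stood above 91.8%, 95.7% and 88.3% of the other genes with a ratio. Its probes agreed less well than those of PDC1, with values of 0.70 and 2.38 on array 2, 3.41 and 2.26 on array 3, and 2.15 and 1.17 on array 4. Each of these gaps exceeded the median gap for its array, and neither probe was the higher one on every array.

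PDC5 codes for the second major pyruvate decarboxylase, which yeast makes in quantity when PDC1 is lost. It had a ratio on array 1 only, at 5.03 above the median, the mean of 3.89 and 6.17 for its probes. This was rank 9 of 468 genes with a ratio on array 1. The 7 other probes of its block with a ratio on array 1 had a median of 2.75 above the array median. PDC5 was not tested, and no other array bears on it.

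ADH1 codes for the cytosolic alcohol dehydrogenase that forms ethanol, and it had the highest mean of the 4 genes tested. Its log2 ratios were 0.36, 3.58, 2.98 and 3.30 on arrays 1 to 4. It lay 2.98 or more above the median on arrays 2, 3 and 4 and just above it on array 1. The mean was 2.56 ± 1.48 (SD, n = 4), 5.88-fold above the median (limma, adjusted p = 0.0181), at rank 21 of the 498 named genes tested. Without array 1 it was 3.29 (limma, adjusted p = 0.000723). With array 2, 3 or 4 left out, the mean was 2.21, 2.42 or 2.31 and the call ended (limma, adjusted p = 0.0686, 0.0631 and 0.0636). Across the arrays it stood above 81.4%, 99.7%, 96.4% and 98.5% of the other genes with a ratio. Its probes lay at 0.34 and 0.39 on array 1, 3.93 and 3.24 on array 2, 3.46 and 2.50 on array 3, and 3.86 and 2.74 on array 4. The same probe was the higher one on arrays 2 to 4. The gaps there were 0.68, 0.96 and 1.12, each above the median gap for its array, as with PDC6.

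ADH2 codes for the glucose-repressed alcohol dehydrogenase that oxidises ethanol. Its log2 ratios were -2.16, -1.61 and -1.94 on arrays 2, 3 and 4, all below the median. The mean was -1.90 ± 0.28 (SD, n = 3), 3.74-fold below the median (limma, adjusted p = 0.00575). The SDs of PDC1 and ADH1 also cover array 1, where ADH2 had no ratio, so these spreads cannot be ranked together. It stood above 4.64%, 15.1% and 11.2% of the other genes with a ratio on these arrays. The gaps between its probes were 0.12, 0.48 and 0.04. They were below the median gap on arrays 2 and 4 and above it, at 0.36, on array 3. Without array 4 the mean was -1.89, and the calls of ADH2 and PDC6 both ended by a narrow margin (limma, adjusted p = 0.0504 and 0.0512).

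The remaining alcohol dehydrogenase genes gave single values and no test. ADH3, which codes for the mitochondrial enzyme, had a ratio on 1 of its probes on array 1, at -2.43, above 21.8% of the other genes there. The median removed on array 1 rested on 100 genes and, at log2 -1.71, was above the median of -3.19 over all probes with a ratio there, so most spots of that array lie below 0. ADH4, whose product is regulated by zinc and belongs to another enzyme family than the other four, had -0.94 and -1.05 on its probes on array 2, above 26.9% of the other genes. Neither gene has a second array to set this against.

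**Figure D2:**
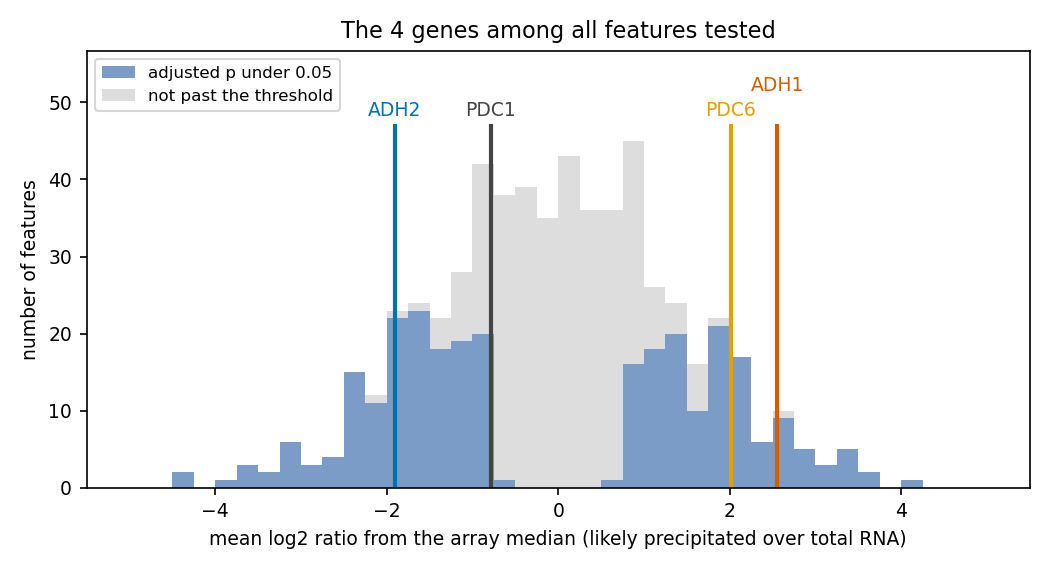
Histogram of the mean log2 ratio from the array median (x axis) of the 596 features tested (y axis, number of features), with features past the limma threshold in blue and the others in grey; vertical lines mark PDC1, PDC6, ADH1 and ADH2. ADH1 at 2.56 and PDC6 at 2.01 lie in the upper called range, ADH2 at -1.90 in the lower, and PDC1 at -0.79 among features of which many did not pass.

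Isozymes were compared within arrays, where the array median cancels but differences between the blocks of the genes do not. Of 13 pairs within the pyruvate decarboxylases and within the alcohol dehydrogenases, 2 shared 3 arrays, 4 shared 1 array and 7 shared none. ADH1 exceeded ADH2 by 5.75, 4.59 and 5.23 on the log2 scale on arrays 2, 3 and 4, a mean of 5.19 ± 0.58 (SD, n = 3) or 36.5-fold. The difference was in the same direction on 3 of 3 arrays. An exact sign-flip permutation test over 3 arrays cannot go below p = 0.25, which is the value it gave (two-sided, adjusted p = 0.25 over 2 pairs). With each gene centred on the median of its block, as described below, the difference averaged 2.50 ± 0.94 (SD, n = 3). PDC1 minus PDC6 was -1.07, -2.68 and -1.71 on arrays 2, 3 and 4, a mean of -1.82 ± 0.81 (SD, n = 3), with the same exact p of 0.25. ADH1 and ADH2 are close in sequence, as are the PDC genes, and on a spotted array near-identical genes can share signal. No probe sequences were used here, so how far these spots are specific was not tested. On single arrays, PDC1 minus PDC5 was -8.75 on array 1, ADH1 minus ADH3 was 2.80 on array 1, and ADH1 minus ADH4 was 4.58 and ADH2 minus ADH4 was -1.17 on array 2.

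Position by probe number went along with these values. PDC6 and ADH1 lie in the same block of 400 consecutive probe numbers, and the median of that block was 1.42, 1.31 and 2.15 above the array median on arrays 2, 3 and 4 (26, 23 and 17 probes) and 0.09 above it on array 1 (15 probes). The block of ADH2 lay at -0.75, -1.21 and -1.21 on arrays 2, 3 and 4 (225, 47 and 73 probes). Without the probes of the 10 genes, the block of PDC6 and ADH1 had medians of 1.07, 1.06 and 2.09 on arrays 2, 3 and 4 (22, 19 and 13 probes) and -0.43 on array 1 (13 probes), and that of ADH2 -0.74, -1.17 and -1.20 on arrays 2, 3 and 4. On these 3 arrays each gene called thus shared the side of the other probes in its block. Centred on the block median instead, ADH1 had 0.28, 2.17, 1.67 and 1.14 on arrays 1 to 4, with a mean of 1.31 ± 0.81 (SD, n = 4), and remained past the threshold (limma, adjusted p = 0.0332). PDC6 had 0.13, 1.52 and -0.49 on arrays 2, 3 and 4, on both sides of its block, with a mean of 0.38 ± 1.03 (SD, n = 3), and its call ended (limma, adjusted p = 0.543). ADH2 had -1.41, -0.40 and -0.73, still below on each array, with a mean of -0.85 ± 0.52 (SD, n = 3), and its call ended (limma, adjusted p = 0.0830).

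PDC1 had a block-centred mean of -0.15 ± 1.06 (SD, n = 4; limma, adjusted p = 0.790). On this scale 34.6% of all features passed. ADH1 minus ADH2 averaged 2.50 ± 0.94 and PDC1 minus PDC6 -0.02 ± 1.10 (SD, n = 3 each). Of the differences on single arrays, PDC1 minus PDC5 became -2.83 and ADH1 minus ADH3 became 5.15 on array 1. On array 2, ADH1 minus ADH4 became 2.85 and ADH2 minus ADH4 became -0.74. The blocks include the genes' own probes, which weigh most where few probes had a ratio. The block of PDC1 had medians of -0.29, -0.07 and -0.14 on arrays 2, 3 and 4 with its probes. Without them the medians were -0.44, -0.79 and -0.54. The signs of the means near 0, -0.15 for PDC1 and -0.02 for PDC1 minus PDC6, are thus not settled by this centring. Block numbers are runs of probe numbers, and the layout of the slide is not given in the sources used here, so position and transcript cannot be told apart.

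**Figure D3:**
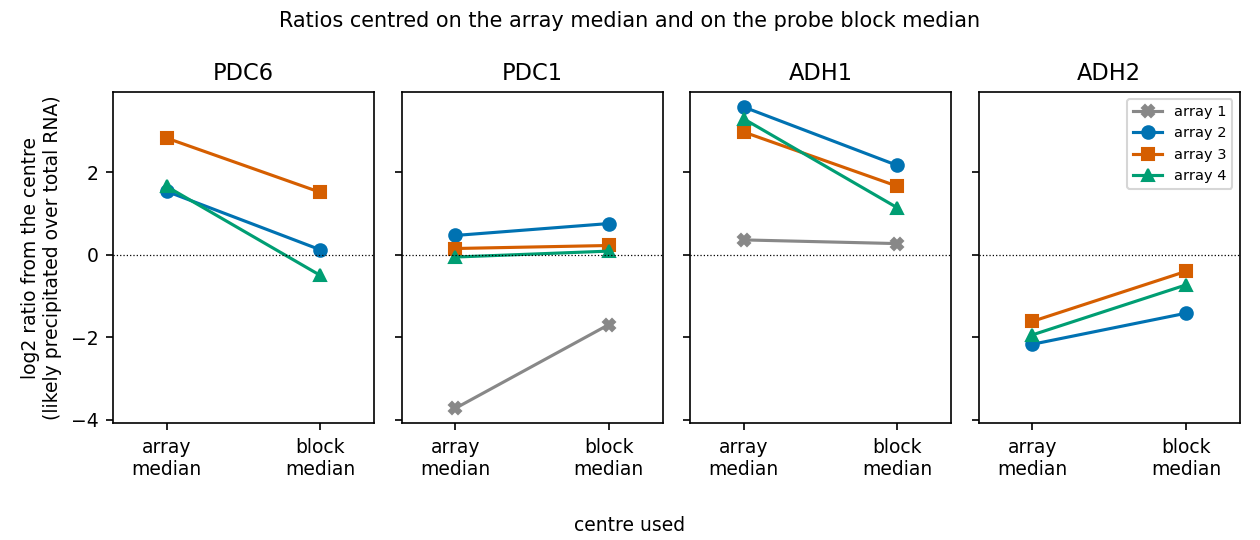
Log2 ratio (y axis) of the 4 tested genes on each array, centred on the array median (left in each panel) and on the median of the gene's block of 400 consecutive probes (right); each line is 1 array. Under block centring PDC6 falls on both sides of 0, ADH2 stays below 0 at -1.41 to -0.40 and ADH1 stays above 0 at 0.28 to 2.17.

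**Figure D4:**
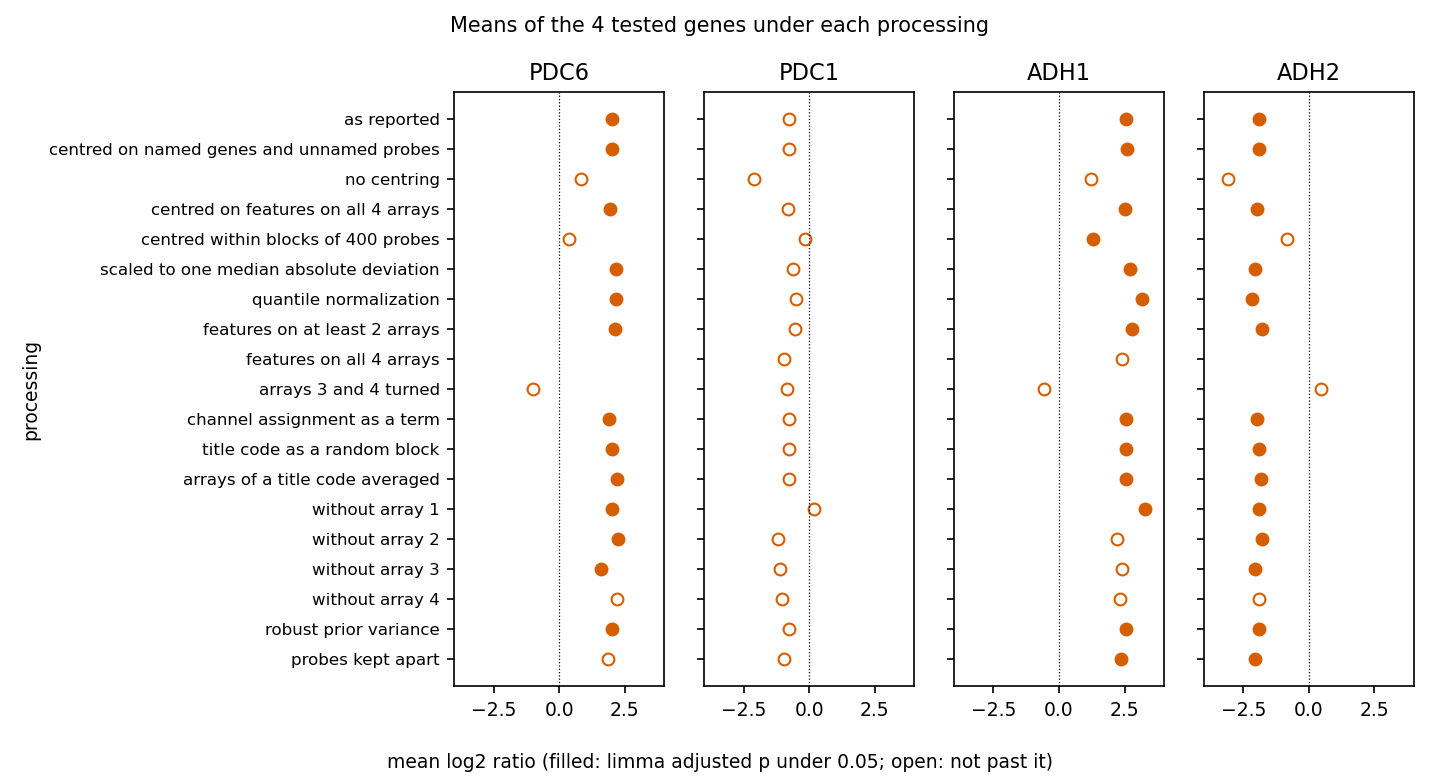
Mean log2 ratio (x axis) of the 4 tested genes, 1 panel each, under each processing tried (rows); filled circles passed at a limma adjusted p under 0.05 and open circles did not, and a missing circle means that the gene was not tested there. ADH1 is open in 6 of 18 alternatives, PDC6 in 5 of 17 and ADH2 in 4 of 17, and PDC1 is open in each of the 18.

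The steps before pyruvate were taken from a list of 21 glycolysis genes from hexokinase to pyruvate kinase, of which 9 were tested. Above the median were 2 of them and below it 3, while 4 missed the threshold, and the median of the 9 means was 0.31. Their share of calls lies close to the 47.7% over all features. CDC19, the pyruvate kinase that forms the substrate of the PDC enzymes, had the lowest mean of this list, with -4.21, -2.52 and -2.99 on arrays 2, 3 and 4 and a mean of -3.24 ± 0.87 (SD, n = 3; limma, adjusted p = 0.00575). Its value thus lay below those of PDC1 and PDC6, the next enzymes in the pathway, on each of these arrays. The aldolase gene FBA1 averaged -2.72 ± 0.42 and the phosphoglycerate kinase gene PGK1 -2.14 ± 0.12 (SD, n = 3 each; limma, adjusted p = 0.00444 for both). TDH1, a glyceraldehyde-3-phosphate dehydrogenase gene, averaged 2.43 ± 0.94 (SD, n = 4; limma, adjusted p = 0.00682) and the enolase gene ENO1 1.62 ± 0.21 (SD, n = 3; limma, adjusted p = 0.00722).

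TDH3, which codes for the main glyceraldehyde-3-phosphate dehydrogenase, resembled PDC1 in its pattern. It had -3.69 on array 1 and -0.64, -0.35 and -0.31 on arrays 2 to 4, and its mean of -1.25 ± 1.63 (SD, n = 4) did not pass (limma, adjusted p = 0.157). Without array 1 its mean was -0.44. Block centring ended the call of ENO1 (mean 0.26, limma, adjusted p = 0.460) and left those of CDC19, FBA1, PGK1 and TDH1. The call of ENO1 also ended without array 4 (limma, adjusted p = 0.0636).

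**Figure D5:**
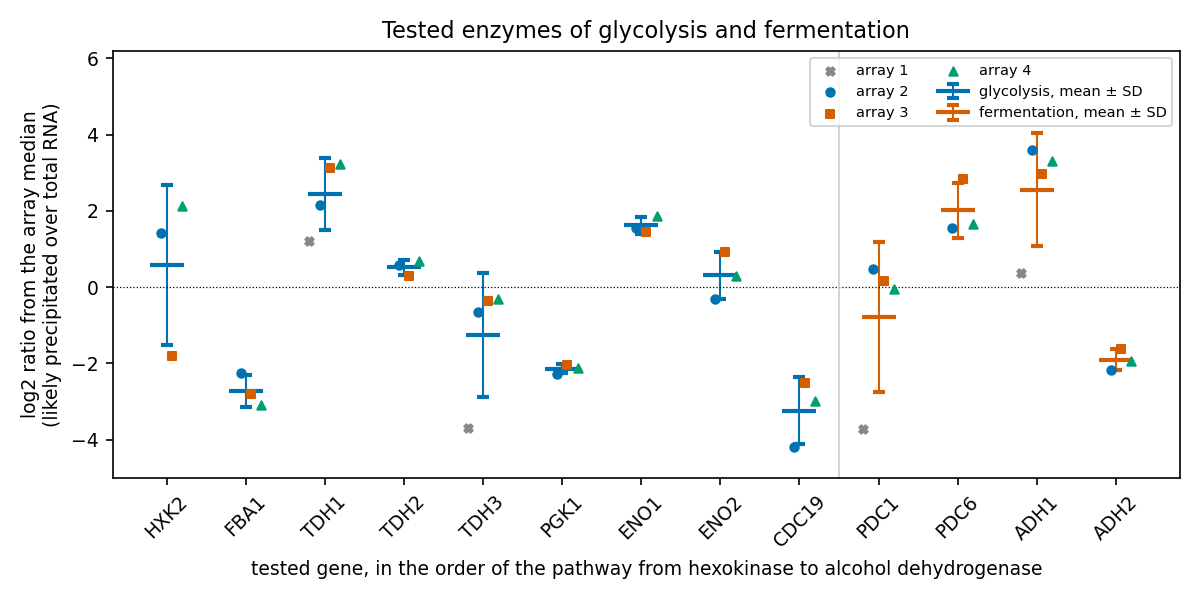
Log2 ratio from the array median (y axis) of the tested glycolysis genes (blue) and fermentation genes (orange) in pathway order (x axis); horizontal marks are means, bars are ± 1 SD over the 3 or 4 arrays with a ratio, and small symbols are single arrays. Neighbours in this order lie on opposite sides of 0 in places: CDC19 has a mean of -3.24 and PDC6, of the next step, 2.01, and the isozyme genes ADH1 and ADH2 have 2.56 and -1.90.

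The branches around pyruvate and acetaldehyde held few measured genes. Of 23 genes for other fates of pyruvate, acetate and acetyl-CoA, 2 were tested and neither passed: DLD3, a lactate dehydrogenase gene, averaged 0.79 ± 0.77 and MPC1, a subunit of the mitochondrial pyruvate carrier, 0.03 ± 0.66 (SD, n = 3 each; limma, adjusted p = 0.143 and 0.952). DLD3 passed when centred within blocks, at 1.57 (limma, adjusted p = 0.0311), and with a term for the channel assignment, at 1.00 (limma, adjusted p = 0.0476), while without array 2 its mean was 0.35. Of 12 genes for glycerol synthesis and use beside GPD1, the dihydroxyacetone kinase gene DAK1 was the only one tested, with a mean of 0.80 ± 0.71 (SD, n = 3; limma, adjusted p = 0.126). Without array 2 its mean was 1.21 and passed (limma, adjusted p = 0.0447). Of 18 genes for other alcohol and aldehyde reductases and ester formation, and of 11 regulators, 0 were tested, since none had a ratio on 3 arrays.

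Among the 73 named genes with a ratio on all 4 arrays, the patterns closest to ADH1 by the mean absolute difference over the 4 arrays were those of GTO1, a glutathione transferase gene (0.28), RPS27B, of the small ribosomal subunit (0.59), and TDH1 (0.62). GTO1 had -0.14, 3.38, 3.03 and 2.96 on arrays 1 to 4, so its value was also lowest on array 1. The centre of array 1 rested on 100 genes and lay above 77.4% of all genes with a ratio there. Closest to PDC1 were TDH3 (0.48), the elongation factor gene TEF1 (0.51) and the Hsp70 gene SSA1 (0.57), with -3.69, -3.17 and -2.40 on array 1. These likenesses describe 4 values per gene and were not tested.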

How the data were processed

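Each probe has 1 deposited log10 ratio per array. How the authors corrected background, normalized and removed spots is not given in the sources used here. Their base was read from the values: of 500 drawn, 29.4% were ratios of whole numbers with a denominator up to 2000 (relative tolerance 3e-09) when read as log10, against 0.4% as log2 and 0% as natural logarithms. Scale is thus settled; the columns are not centred on 0 (deposited log10 medians -0.960, 0.462, -1.12 and -0.519), and direction is unstated. The 2 repeated probe rows were averaged with their first row.

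Gene names came from the platform annotation held by GEO, which can be old: 11138 had 1 symbol, 0 several and 1662 none, and 11128 identifiers matched the R64 gene table. No sequences or coordinates were used. Ratios were turned to log2, averaged over the probes of a gene and centred on the median of named genes on at least 3 arrays. Features on at least 3 arrays (596: 498 genes, 98 unnamed probes) were fitted in R 4.3.3 with limma 3.58.1 (lmFit, then eBayes) and adjusted over all. For PDC6 and ADH2, which lack array 1, the channel assignments were unequal, so a dye effect does not cancel; a fit with a term for the channel assignment is among the alternatives. On simulated ratios for this comparison with the real missing values, run on 596 features, the fit found 88% of true shifts of 1 log2 and 100% of true shifts of 2, with 5.53% false among its calls. Array 1 given 4 times the spread changed these to 49%, 99% and 0.671%. Every simulated feature had the same spread, the median SD, whereas real spreads differ between features. Shared errors of nearby spots were not simulated. These rates may therefore not hold for the real calls.

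The genes, lists and tests were chosen with earlier results of these data known. All 10 genes are described, with up to 6 tested genes per list by size of mean and the 3 nearest patterns. The alternatives varied centring (also within blocks of 400 probes), scaling, missing values, direction, channel, title code (2 codes of 2 arrays, meaning unstated, as a random block with statmod 1.5.0, or averaged), arrays, prior variance, probe averaging and threshold. Other steps ran in Python 3.11.15 (scipy 1.17.1, pandas 2.3.3, numpy 2.4.6) and plots in matplotlib 3.10.9.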

Additional observations from a re-analysis of the deposited data

Results flagged for a closer look

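PDC1 on array 1, at a log2 ratio of -3.72 from the array median, lay far from its values on the other 3 arrays: its gap to the nearest of them was 0.875 of the gene's whole range, above Dixon's critical value for 4 values. TDH3 on array 1, at -3.69, was apart in the same way, with a gap of 0.901 of its range. These were 2 of the 4 genes with 4 values that were examined (PDC1, ADH1, TDH1 and TDH3). Dixon's value assumes values of equal spread, whereas array 1 stood apart over all features (r = 0.127 to 0.239 with the others). The flags are thus not a result about these genes. Centred on its block, PDC1 had -1.69, 0.76, 0.23 and 0.09 on arrays 1 to 4, with array 1 less far from the rest.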

How the results depend on the processing

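Each ratio already pairs both RNA sources on 1 array. No pairing between groups was possible, because the 4 arrays form 1 group. The means of ADH1, PDC6 and ADH2 passed in 12 of 18, 12 of 17 and 13 of 17 alternatives at the same threshold and PDC1 in 0 of 18. These counts do not measure strength, since many alternatives differ little from the reported fit. PDC6 and ADH2 have no ratio on array 1, so leaving it out repeated their means of 2.01 and -1.90. Scaling to one median absolute deviation, quantile normalization, features on at least 2 arrays, the channel term, averaging by title code, the same code taken as a random block, a robust prior variance, and centring on all features or on those on all 4 arrays left 2 genes above and 1 below. With the channel term PDC6 had 1.89, ADH2 -1.97 and ADH1 2.56 (limma, adjusted p = 0.0362, 0.0185 and 0.0356). The causes of the changes below were not tested, except that fewer features or arrays were fitted where some were left out. Without centring, 0 of the 4 genes and 0 of all features passed (limma; 52 features at an unadjusted p under 0.05), with means of 1.23 for ADH1, 0.81 for PDC6 and -3.10 for ADH2, and reversed means of -0.41 for DLD3, -1.17 for MPC1 and -0.40 for DAK1. With arrays 3 and 4 turned, 0 passed (limma; 1 at an unadjusted p under 0.05), and the means turned to -0.58 for ADH1, -0.98 for PDC6, 0.46 for ADH2, -0.81 for DAK1, 0.43 for CDC19, 1.21 for FBA1, -0.74 for TDH1, 0.63 for PGK1 and -0.58 for ENO1. Centred within blocks, 1 gene lay above (ADH1) and 0 below, with PDC6 at 0.38 and ADH2 at -0.85, the differences within arrays moved to -0.0225 for PDC1 minus PDC6 and 2.50 for ADH1 minus ADH2, and 107 features lay above and 99 below, against 134 and 150 as reported. Among features on all 4 arrays, where PDC6 and ADH2 drop out, ADH1 had 2.39 and did not pass (limma, adjusted p = 0.0547), so 0 genes lay above and 0 below, beside 9 and 7 of 80 features (29 at an unadjusted p under 0.05). With the probes of a gene kept apart and all required to pass, 1 gene lay above, since 1 probe of PDC6 did not pass (limma, adjusted p = 0.0536; the mean over both its probes was 1.86). At an adjusted p under 0.01, 0 genes lay above and 1 below, and 66 and 60 features. With 1 array left out, 0 to 2 genes lay above and 0 to 1 below, the lowest without array 4, and 45 to 168 features above and 41 to 174 below. In these fits the means ran from 2.21 to 3.29 for ADH1, 1.60 to 2.25 for PDC6, -2.05 to -1.77 for ADH2 and -1.20 to 0.19 for PDC1, which turned without array 1, and MPC1 from -0.25 to 0.39. MPC1 also turned when centred on features on all 4 arrays (-0.0431) or with the arrays of a title code averaged (-0.15). Signal over background was not used here, so what spot brightness limits is unknown.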

Other observations

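Genes of the surrounding pathways with a ratio on 1 or 2 arrays only, listed after their values were seen and with no test, are given here as values. The median removed came from genes on at least 3 arrays, and of all genes with a ratio 77.4%, 59.8%, 52.0% and 55.7% lay below it on arrays 1 to 4. On array 2 the acetyl-CoA synthetase gene ACS1 had a log2 ratio of -2.18, PDB1, of the pyruvate dehydrogenase complex, -1.0, and the aldehyde dehydrogenase gene ALD2 -0.93. ACS2, the other acetyl-CoA synthetase gene, had -1.28 on array 3. On array 2 ACH1 stood at 0.05, THI3 at -0.49, the glycerol kinase gene GUT1 at -0.41 and GUP1 at 0.00. BDH2 had -0.80 on array 2 and -1.28 on array 4. On array 1 the pyruvate carboxylase gene PYC2 had -2.04, EEB1 -1.94 and GUT2, the mitochondrial glycerol-3-phosphate dehydrogenase gene, -0.66, while the lactate dehydrogenase gene CYB2 had 0.22. The transcription factor genes TYE7 and MIG1 had 0.15 and -0.60 on array 2.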
